A study of Homo sapiens with 6 samples.

Results

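Human chromosome 7 was examined as 2 arms in ATAC-seq peak lists from MDA-MB-231 cells. All summits on chromosome 7 were taken from the 6 lists, which gave 11289 of 205397 summits in all. A summit is the position of highest signal in a peak. The short arm lay before position 58054332 and the long arm after position 61054331 of GRCh37 (hg19), with the unsequenced centromere gap between them. Summits were widened by 250 bp on each side and merged across libraries into 3014 loci on chromosome 7, of 56419 on all chromosomes. The short arm held 1371 of these loci and the long arm 1643. A peak was listed in all 6 libraries at 432 short-arm and 541 long-arm loci. The chromosome was chosen by summit shares and peak ranks that differed between parental and knockout cells in earlier results of these data. Differences between the 2 groups are therefore described here without a test, while the 2 arms were compared by a test within libraries.

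MDA-MB-231 is a human cell line of triple-negative breast cancer. Parental cells gave 3 libraries and SAP30-KO1 cells, which derive from the same line and have SAP30 knocked out by CRISPR/Cas9, gave the other 3. Per the methods, a knockout line was not a single clone but a mixture of several selected cells, and no library labelled as a scrambled guide control was analysed here. The labels do not say that the replicates were separate cultures, so differences are read against the spread between libraries, which may be technical.

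ATAC-seq uses a transposase that cuts DNA where it is not wrapped tightly in nucleosomes, so peaks mark promoters, enhancers and other open sites. SAP30 is a subunit of the SIN3 complex, which carries histone deacetylases to chromatin and is best known as a repressor. Chromosome 7 carries genes well known in cancer, such as EGFR on the short arm and MET, EZH2 and CDK6 on the long arm, as well as the HOXA cluster. A bulk library cannot tell a site that is open in more cells from one that is more open in each cell.

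Each library had 29762 to 40650 summits. The lists hold no read counts, so depth is unknown and peaks were ranked within their own list, from 0 for the weakest to 100 for the strongest. A rank of 0 was given where no peak was listed. The SAP30 promoter on chromosome 4 had a peak in all 6 libraries, and a peak there does not check the knockout. Of the basal or mesenchymal markers, VIM, CD44, EGFR and CAV1 had a peak at the promoter in all 6 libraries, AXL in 3 and FOSL1 in 2. Of the luminal markers, KRT8 and GATA3 had one in 5 libraries, ERBB2 in 4, FOXA1 in 2, and ESR1 and PGR in 1 each.

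Stretches of 180 bp around 6 summits are shown because these loci had the strongest peaks away from promoters, or differed most between the groups among loci whose group ranks did not overlap. They were read from GRCh37 on the plus strand and lie in introns or between genes. Capitals mark TGANTCA or its reverse complement, the letters bound by AP-1 factors, which were held by 44.2% of the 501 bp windows over all 56419 loci. Both strands were also searched for CCGGAAG (ETS, in 6.89% of all windows), GGGCGGG (SP and KLF, 19.4%), GGAATG (TEAD, 32.0%) and the longer motifs of CTCF (6.46%) and NRF1 (2.83%), and none of the 6 stretches held them.
NPSR1 intron, chr7:34788117-34788296: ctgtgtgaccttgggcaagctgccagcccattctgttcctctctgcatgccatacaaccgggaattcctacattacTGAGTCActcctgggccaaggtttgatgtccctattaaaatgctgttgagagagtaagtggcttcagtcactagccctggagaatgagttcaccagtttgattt
SDK1 intron, chr7:4285474-4285653: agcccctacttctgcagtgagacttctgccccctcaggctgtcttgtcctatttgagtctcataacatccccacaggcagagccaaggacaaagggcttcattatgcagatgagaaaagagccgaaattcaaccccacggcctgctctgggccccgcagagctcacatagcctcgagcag
PKD1L1 intron, chr7:47803177-47803356: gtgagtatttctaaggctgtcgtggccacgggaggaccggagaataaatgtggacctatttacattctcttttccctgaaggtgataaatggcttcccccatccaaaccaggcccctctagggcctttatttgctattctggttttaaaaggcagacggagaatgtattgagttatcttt
beside the centromere gap, chr7:61969056-61969235: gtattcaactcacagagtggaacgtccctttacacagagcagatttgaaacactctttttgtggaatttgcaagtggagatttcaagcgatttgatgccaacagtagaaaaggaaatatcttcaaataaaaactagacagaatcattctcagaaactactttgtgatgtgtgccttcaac
nearest to DLX6, chr7:96531424-96531603: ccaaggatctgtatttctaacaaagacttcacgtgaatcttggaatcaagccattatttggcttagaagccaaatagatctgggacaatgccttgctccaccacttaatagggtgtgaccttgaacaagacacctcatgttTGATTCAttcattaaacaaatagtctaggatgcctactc
nearest to GIMAP8, chr7:150125877-150126056: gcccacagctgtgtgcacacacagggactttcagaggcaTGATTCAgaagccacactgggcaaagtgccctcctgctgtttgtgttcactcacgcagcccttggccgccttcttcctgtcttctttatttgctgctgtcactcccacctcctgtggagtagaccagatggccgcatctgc

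First, the share of each library's summits that lay on each arm was compared. The short arm held 2.39%, 2.35% and 2.36% of summits in parental libraries and 2.69%, 2.63% and 2.58% in SAP30-KO1 libraries. The means were 2.37% ± 0.0197 and 2.64% ± 0.0542 (SD, n = 3), a log2 ratio of 0.16, and the groups did not overlap. Over all 41 arms, the share was higher in SAP30-KO1 without overlap in 17.1% and lower in 12.2%. The long arm held 3.06%, 2.95% and 3.03% of summits in parental libraries and 2.96%, 2.97% and 2.98% in SAP30-KO1 libraries. These ranges overlapped, with a log2 ratio of -0.02. In summit numbers, the short arm had 877, 717 and 792 in parental libraries and 801, 1071 and 885 in SAP30-KO1 libraries, so the groups overlapped before the length of the lists was taken into account. Ordered by log2 ratio, the short arm stood at position 4 of 41 arms, after Xq, 4p and 1p, and the long arm at position 27.

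The higher share was found in the outer 4 of the 6 short-arm windows of 10 Mb. From 10 to 20 Mb, where AHR and HDAC9 lie, the share was 0.335%, 0.341% and 0.331% in parental libraries and 0.427%, 0.411% and 0.429% in SAP30-KO1 libraries. The means of windows 1, 3 and 4 went from 0.406% to 0.469%, from 0.468% to 0.522% and from 0.444% to 0.509%, again without overlap. From 40 Mb to the gap both windows overlapped, with means of 0.494% and 0.483% from 40 to 50 Mb. In none of the 10 long-arm windows were the groups apart. Over all 307 windows of the genome, 16.0% were higher and 16.6% lower in SAP30-KO1 without overlap. With windows of 5 Mb, 5 of 12 on the short arm were higher and 1 lower, against 1 of 20 higher and none lower on the long arm, where 14.7% and 13.2% of all such windows were higher and lower.

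**Figure D1:**
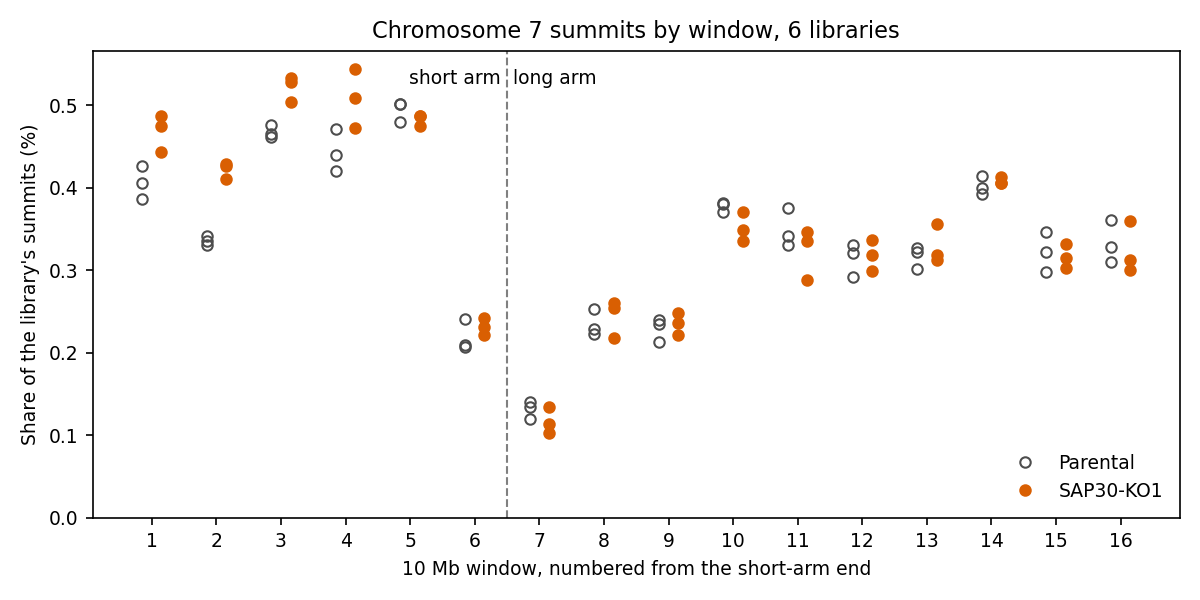
Share of each library's summits (%, vertical axis) in 10 Mb windows of chromosome 7 numbered from the short-arm end, with 1 point per library (open grey, parental; filled orange, SAP30-KO1). Windows 6 and 7 end at the centromere gap (dashed line). The 3 orange points lie above the 3 grey points in windows 1 to 4 and in no long-arm window.

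Next, peak ranks were compared at the loci listed in all 6 libraries. The difference of a locus is its mean rank in SAP30-KO1 libraries minus its mean rank in parental libraries, in percentile points. On the short arm the median difference was 3.42, and 274 of 432 loci (63.4%) were higher in SAP30-KO1. It was 1.77 on the long arm, with 325 of 541 loci (60.1%) higher. Over the 15341 loci of all other chromosomes the median was 0.04, with 50.3% of loci higher. The difference between the arms in these medians was not tested. Leaving out the second SAP30-KO1 library gave medians of 2.12 on the short arm and 0.72 on the long arm, and leaving out the second parental library gave 0.67 on the long arm.

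All 3 SAP30-KO1 ranks were above all 3 parental ranks at 68 short-arm loci (15.7%) and below them at 21 (4.86%). This held on the long arm for 44 loci (8.13%) and 18 loci (3.33%). The background over all 16314 loci was 8.58% higher and 7.08% lower. The contrast had chosen the chromosome, so these counts are descriptions.

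Over the 41 arms the median rank was apart and higher in 7.32% and lower in 2.44%, and neither arm of chromosome 7 was among them. The median rank of short-arm loci was 74.8, 72.3 and 72.9 in parental libraries and 72.9, 81.2 and 77.7 in SAP30-KO1 libraries. The groups overlapped, since the first SAP30-KO1 library lay within the parental range. The median of that library on the other chromosomes was 69.4, against 77.9 and 73.3 in the other 2 SAP30-KO1 libraries. Within each SAP30-KO1 library the short arm stood above the other chromosomes. In the parental libraries, whose medians elsewhere were 75.6, 70.6 and 73.4, it stood above in the second library and below in the other 2. When all summits were used rather than loci in all 6 libraries, the short-arm median rank was 51.1, 54.6 and 52.5 in parental libraries and 55.3, 55.2 and 56.3 in SAP30-KO1 libraries. The long-arm medians were 48.8, 49.4 and 49.2 against 54.3, 50.7 and 52.1, so on both arms the groups were apart by this measure. Medians over all summits were not taken for other arms, so this gap is not shown to be particular to chromosome 7.

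Along the short arm the median difference went from 8.95 in the outermost 10 Mb to 8.73, 6.32 and 2.87 in the following windows, and was -1.90 and -2.46 in the last 2 before the gap. Over the 276 windows of the genome with 20 or more loci, the 10th and 90th percentiles were -3.86 and 5.50. The value of window 1 was reached by 10 of them, itself included. Library medians were apart and higher in windows 2 and 3, apart and lower in window 6, and overlapped in windows 1, 4 and 5. The first 40 Mb held 307 loci with a median of 6.33, of which 227 (73.9%) were higher. There 62 loci (20.2%) were higher without overlap and 9 (2.93%) lower. The remaining 125 loci had a median of -2.03, with 37.6% higher, 6 (4.8%) higher without overlap and 12 (9.6%) lower. Over all loci these shares without overlap were 8.58% higher and 7.08% lower. The border at 40 Mb was set after the windows had been seen. Between 40 Mb and the gap the median was -0.44 without the first SAP30-KO1 library and -3.91 without the second. The median ranks there were 78.9, 79.0 and 77.3 in parental libraries and 68.7, 78.7 and 77.6 in SAP30-KO1 libraries.

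Long-arm windows had median differences between -0.03 and 7.73. Library medians were apart and higher from 60 to 70 Mb and from 80 to 90 Mb, and overlapped in the other long-arm windows. How often this occurs over the genome was not counted. The value of 7.73 belonged to the 39 loci from 70 to 80 Mb, which include the region deleted in Williams syndrome. Next to it, the 47 loci from 80 to 90 Mb had 3.06, with 12 loci higher without overlap and none lower. Over all 16314 loci, 8.58% were higher and 7.08% lower without overlap.

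**Figure D2:**
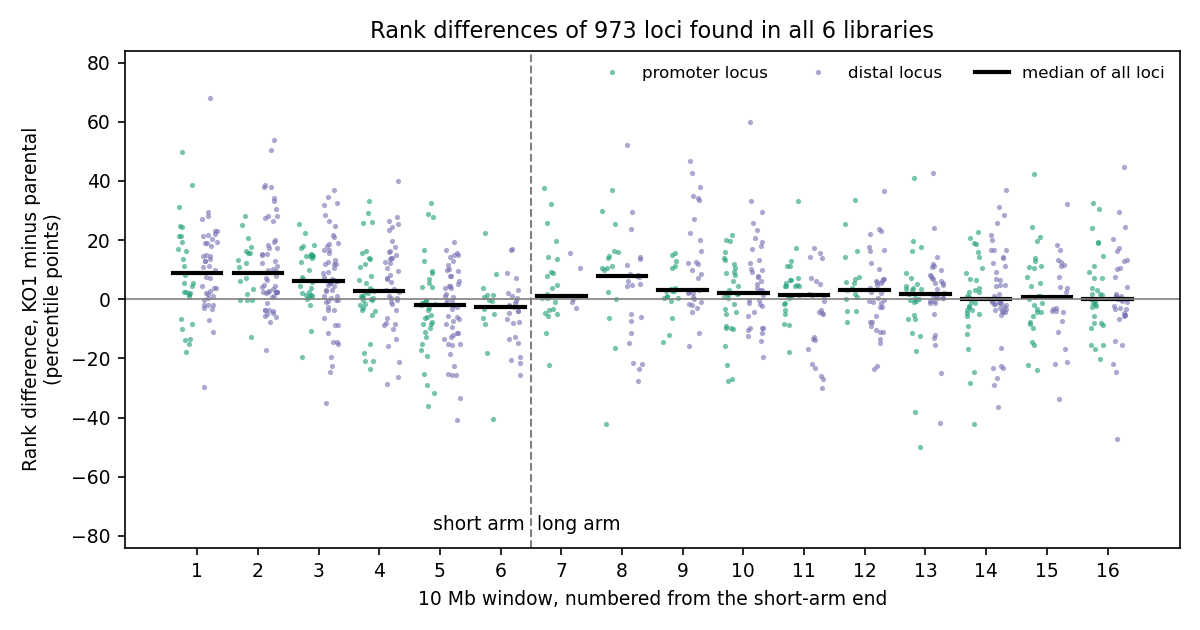
Rank difference of each of 973 loci (SAP30-KO1 mean minus parental mean, percentile points, vertical axis) by 10 Mb window of chromosome 7, with promoter loci in green, distal loci in purple and a black bar at the median of all loci in the window. The bars fall from 8.95 in window 1 to -2.46 in window 6 and lie between -0.03 and 7.73 on the long arm, and points of both classes lie on both sides of 0 in every window.

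To compare promoters with distal sites, a locus was called a promoter locus when its centre lay within 1 kb of a transcript start. On the short arm 159 loci were at promoters and 273 were distal, and on the long arm 250 and 291. The short-arm medians were 2.45 at promoters and 3.94 at distal loci. The long-arm medians were 1.92 and 1.43, and both classes stood near 0 over all chromosomes, at 0.20 and 0.13. The order of the arms at promoters was not stable: short-arm and long-arm medians were 2.01 and 2.92 when windows reached 100 bp to either side, and 3.20 and 3.73 without the first parental library. Leaving out the second parental library gave 1.25 at short-arm promoters, 0.76 at long-arm promoters and 0.45 at long-arm distal loci. Leaving out the second SAP30-KO1 library gave 2.22 at short-arm distal loci, 0.997 at long-arm promoters and 0.31 at long-arm distal loci.

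Among short-arm distal loci, 48 were higher without overlap (17.6%) and 16 lower (5.86%), where all distal loci had 9.69% and 7.75%. Among short-arm promoter loci, 20 were higher (12.6%) and 5 lower (3.14%), where all promoter loci had 7.16% and 6.23%. The shares higher on the long arm were 8.80% at promoters and 7.56% at distal loci, and the shares lower were 4.40% and 2.41%. Within the first 40 Mb the medians of the classes were 5.60 and 6.72. The distal loci there had median ranks of 69.6, 69.2 and 69.8 in parental libraries and 75.8, 82.7 and 77.9 in SAP30-KO1 libraries. At promoters of the same stretch the ranks were 74.5, 66.4 and 74.5 against 71.5, 82.4 and 76.9. The distal medians were apart, and the promoter medians overlapped. How often such medians are apart in other stretches of the genome was not counted, and the 40 Mb border was set after the windows had been seen.

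**Figure D3:**
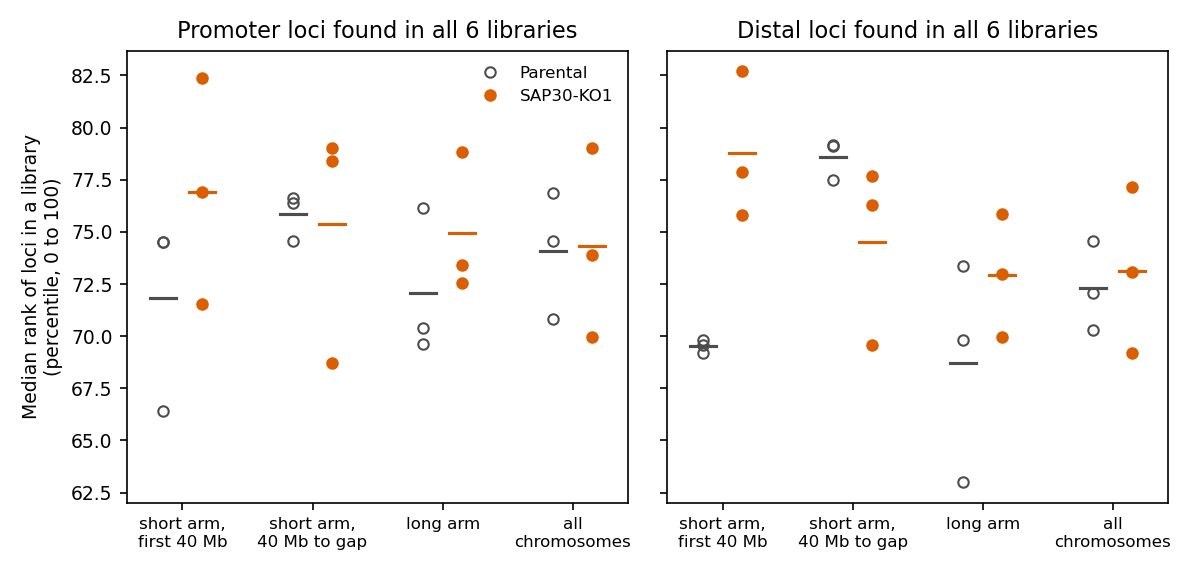
Median rank of loci in each library (percentile from 0 to 100, vertical axis, which does not start at 0) for promoter loci (left) and distal loci (right) in 2 stretches of the short arm, in the long arm and over all chromosomes, with 1 point per library and a bar at the mean of 3. Of the groups of loci shown, only the distal loci of the first 40 Mb have all 3 SAP30-KO1 points above the 3 parental points. The 40 Mb border was set after the windows had been seen.

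The strongest short-arm promoters were chosen by their mean rank over all 6 libraries. Their ranks lie close to the upper end of the scale, 100, which leaves little room for a difference between the groups. The promoter of GIRGL, a long noncoding RNA gene next to MACC1, had ranks of 99.7, 99.7 and 99.5 in parental libraries and 99.4, 99.96 and 99.5 in SAP30-KO1 libraries. STARD3NL, whose product sits at contacts between late endosomes and the endoplasmic reticulum, had mean ranks of 99.6 and 99.6. The shared promoter of RPA3, a subunit of the replication protein A complex that binds single-stranded DNA, and UMAD1 had 99.4, 97.5 and 99.2 against 99.8, 99.8 and 99.8. It was apart by a mean of 1.06 points. The strongest distal loci lay in introns of NPSR1, the neuropeptide S receptor, BBS9, a subunit of the ciliary BBSome, and DPY19L1, a C-mannosyltransferase, with means of 98.8 to 99.96 in either group. The NPSR1 stretch printed above carries 1 match to the AP-1 letters.

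Among short-arm loci without overlap, the difference was greatest in an intron of SDK1, which encodes a cell adhesion protein of the immunoglobulin superfamily. Its ranks were 12.8, 34.6 and 8.07 in parental libraries and 93.1, 83.6 and 83.4 in SAP30-KO1 libraries, so a weak peak in the parental lists was a strong one in the SAP30-KO1 lists. The means were 18.5 ± 14.2 and 86.7 ± 5.51 (SD, n = 3). An intron of the noncoding gene ENSG00000223838, 181 kb from POLR1F, followed with means of 19.7 and 73.4. An intergenic locus 125 kb from SNX13, a sorting nexin, had 44.3, 44.6 and 15.2 against 78.0, 94.5 and 83.2. The first promoter in this order was that of MICALL2, an adaptor that links Rab proteins to the actin cytoskeleton. Its locus, chr7:1498837-1499743, had 30.5, 14.98 and 13.5 against 57.2, 75.6 and 76.1.

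In the other direction, 3 of the 4 loci named lay between 40 Mb and the gap. An intron of PKD1L1, a polycystin family member, had ranks of 97.2, 82.8 and 90.7 in parental libraries and 20.5, 64.6 and 63.4 in SAP30-KO1 libraries. The promoter of FIGNL1, an AAA ATPase that acts in homologous recombination, had 63.7, 84.9 and 66.2 against 40.8, 26.0 and 26.5. An intron of JAZF1, a zinc finger gene, had means of 49.0 and 14.0, and the promoter of the pseudogene ZNF619P1 had 82.1 and 50.5. The first SAP30-KO1 library was the lowest of the 6 at PKD1L1 and JAZF1, and the other 2 were the lowest at FIGNL1.

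On the long arm the strongest promoters belonged to PDIA4, a protein disulphide isomerase of the endoplasmic reticulum, CROT, a peroxisomal carnitine acyltransferase, and ADAM22, an ADAM family member without protease activity. CROT had ranks of 99.6, 98.1 and 98.4 in parental libraries and 99.8, 99.95 and 99.9 in SAP30-KO1 libraries, while the groups overlapped at PDIA4 and ADAM22. The strongest long-arm locus of all, at chr7:61968894-61969425, is the first one past the gap, and had a mean rank of 99.997 in either group. Of its stretches of 75 bp, the read length, 27.6% had another exact copy on chromosome 7. Inexact copies and copies on other chromosomes were not searched for. Such repeats were found in 33 of 973 shared loci, and without those the arm medians were 3.30 and 1.80. The last shared short-arm locus before the gap was the promoter of CHCHD2, a mitochondrial protein gene, with ranks of 95.5 to 98.7.

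Among long-arm loci without overlap, the difference was greatest at an intergenic locus 103 kb from DLX6, a homeobox gene. Its ranks were 24.5, 14.0 and 33.2 in parental libraries and 86.5, 93.0 and 72.2 in SAP30-KO1 libraries. The means were 23.9 ± 9.60 and 83.9 ± 10.6 (SD, n = 3). An intron of MAGI2, a scaffold protein gene, had means of 11.4 and 63.4. Intergenic loci nearest to SEMA3A, a secreted guidance cue, and SHH, the sonic hedgehog morphogen, had 25.7 and 72.6, and 18.1 and 62.8. All 4 were distal and were weak in each parental list, with ranks of 33.4 or less.

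In the other direction, an intergenic locus 21.7 kb from GIMAP8, a GTPase gene of lymphocytes, had ranks of 64.3, 75.6 and 76.2 in parental libraries and 32.4, 17.2 and 24.8 in SAP30-KO1 libraries. Both this stretch and the one near DLX6 hold the same AP-1 letters, while their differences had opposite signs. The promoter of ATP6V0A4, a subunit of the proton pump V-ATPase, had 64.3, 80.6 and 72.0 against 14.6, 43.7 and 32.4. The promoter of PMS2P3, a pseudogene of the mismatch repair gene PMS2, had means of 63.9 and 21.9. None of its 427 stretches of 75 bp had another copy on chromosome 7. An intron of HYAL4, a hyaluronidase family gene, had 83.6, 85.0 and 80.9 against 16.7, 57.3 and 49.8.

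Loci found in all libraries of one group and none of the other were counted next. On the short arm 35 loci (2.55%) were listed in all 3 SAP30-KO1 libraries only and 6 (0.438%) in all 3 parental libraries only. The counts on the long arm were 15 (0.913%) and 22 (1.34%). Their order depended on single libraries: SAP30-KO1 and parental counts were 46 and 22 without the first SAP30-KO1 library, 35 and 31 without the third, and 36 and 30 without the first parental library. Over all 56419 loci the shares were 1.43% and 0.876%. Of the 35 short-arm loci, 30 lay in the first 40 Mb and 6 were at promoters, while none of the 6 parental loci was. On the long arm 6 of the 22 parental loci and none of the 15 SAP30-KO1 loci were at promoters. Loci of this kind were weak in most libraries. An intron of ELMO1, a partner of DOCK proteins in the activation of RAC1, had ranks of 65.5, 67.9 and 81.5 in SAP30-KO1 libraries and no listed peak in the parental ones. An intron of ENSG00000229618 had 44.4, 67.5 and 75.4. The 2 parental loci of highest rank lay in an exon of EGFR, with 77.6, 4.54 and 60.4, and 564 kb from IGFBP3, with 2.18, 50.7 and 55.4. On the long arm, introns of PTPRN2, with 79.4, 68.9 and 71.2, and ZNF680, with 67.2, 76.8 and 62.8, were listed in parental libraries only. Introns of TMEM178B, with 69.2, 57.4 and 62.0, and CNTNAP2, with 62.3, 32.4 and 75.4, were listed in SAP30-KO1 libraries only.

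The number of libraries in which a locus was listed went with its strength. On the short arm 369 loci were listed in 1 library, with a median rank of 19.3 there, and 140 in 5 libraries, with 46.7. The 432 listed in all 6 had 73.4. The long arm had 446 listed in 1 library and 118 in 5, with 17.2 and 43.0, and the 541 in all 6 had 70.1. A locus that misses the requirement of 6 libraries was thus usually a weaker peak.

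Protein-coding genes were then read by the strongest summit within 1 kb of any of their transcript starts. It was taken in each library separately, so the ranks of a gene need not come from the same site. Of 298 short-arm genes, 137 (46.0%) had such a summit in all 6 libraries and 96 in none. Of 635 long-arm genes, 219 (34.5%) had one in all 6 and 252 in none. Over all 20176 protein-coding genes, 34.5% had one in all 6 and 37.7% in none. Among those with a peak in all 6, 22 short-arm genes were higher in SAP30-KO1 without overlap and 3 lower, and 18 long-arm genes were higher and 10 lower. Over all 6966 such genes, 7.06% were higher and 5.70% lower. Genes that start from the same promoter share the peak and are counted once each, as with RPA3 and UMAD1, FKBP14 and PLEKHA8, or TECPR1 and BRI3. An unlisted promoter is not shown to be closed, since ACTB, the beta-actin gene that every cell uses, was listed in 2 of 6 libraries.

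Genes of chromatin and transcription numbered 28, and 14 of them had a peak in all 6 libraries, as did 34.5% of all protein-coding genes. HDAC9, SP4, AHR and DMTF1 were higher in SAP30-KO1 without overlap and none was lower. Over all genes with a peak in all 6 libraries, 7.06% were higher and 5.70% lower. HDAC9, a class II histone deacetylase, had ranks of 74.8, 57.4 and 50.7 in parental libraries and 86.7, 87.8 and 83.4 in SAP30-KO1 libraries. AHR, the ligand-activated aryl hydrocarbon receptor, had 65.5, 8.98 and 38.4 against 70.2, 68.3 and 71.2. The second parental library was far below the others at AHR, and the nearest ranks of the groups were 65.5 and 68.3. With every list cut to the same number of summits the groups overlapped at AHR and SP4. SP4, a factor of the SP family, and DMTF1, a cyclin D-binding MYB-like factor, were near the top of every list and differed by 1.42 and 2.92 points. No locus listed in all 6 libraries lay at SP4, so its ranks come from different sites. CBX3, which encodes the heterochromatin protein HP1 gamma, had no listed peak in the first parental library and 30.1 and 45.6 in the others, against 58.0, 55.5 and 74.3. EZH2, the histone H3 lysine 27 methyltransferase, had 75.6, 48.2 and 66.4 against 84.7, 83.1 and 56.0, which overlapped. GLI3, a transcription factor of hedgehog signalling, had 57.0, 53.9 and 62.4 against 21.8, 59.1 and 16.7. Low ranks at GLI3 were found in SAP30-KO1 libraries 1 and 3.

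Of 29 genes of migration, invasion and angiogenesis, 15 had a peak in all 6 libraries, against 34.5% of all protein-coding genes. ITGB8, CAV2 and PODXL were higher in SAP30-KO1 without overlap and none was lower, where the shares over all such genes were 7.06% and 5.70%. ITGB8, the beta 8 integrin that activates TGF-beta, had ranks of 79.3, 53.8 and 82.9 in parental libraries and 89.3, 85.3 and 85.3 in SAP30-KO1 libraries. CAV2, which encodes the membrane coat protein caveolin 2, had 67.4, 29.0 and 55.4 against 85.4, 78.4 and 88.7. PODXL, a sialomucin gene, had 23.6, 28.2 and 14.3 against 30.5, 38.5 and 28.8. Its nearest ranks, 28.2 and 28.8, almost met. With lists cut to the same number of summits, the groups overlapped at ITGB8 and PODXL. CAV1, the neighbour of CAV2 that encodes caveolin 1, had 82.8, 83.5 and 93.9 against 72.3, 82.3 and 94.1, which overlapped. EGFR, the epidermal growth factor receptor, had 68.1, 82.0 and 47.1 against 70.7, 57.4 and 95.3, and MET, the receptor of hepatocyte growth factor, had 92.1, 62.4 and 90.04 against 64.1, 85.1 and 72.6. At both receptors the groups overlapped widely. No promoter peak was listed for TWIST1, ELMO1, MACC1, HGF, LAMB1, CLDN15 or COL1A2 in any library.

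Of 17 genes of the cell cycle and DNA maintenance, 14 had a peak in all 6 libraries, among them all 7 on the short arm. The share over all protein-coding genes was 34.5%. RPA3 and CUL1 were higher in SAP30-KO1 without overlap and none was lower, where the shares over all genes with such a peak were 7.06% and 5.70%. CUL1, a scaffold of SCF ubiquitin ligases, had 30.5, 28.4 and 37.6 against 63.4, 38.4 and 52.7, and overlapped with lists cut to the same number of summits. CDK14, a cyclin-dependent kinase, was listed in 4 libraries, with 13.04 in the first parental library, none in the other two, and 27.3, 49.1 and 27.8 in SAP30-KO1 libraries. PMS2 had 86.8, 48.7 and 61.6 against 81.2, 91.6 and 89.1, which overlapped. CDK6, a kinase that drives entry into S phase, was listed in 3 libraries.

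The gene clusters of chromosome 7 differed in how often a promoter peak was listed. Over all protein-coding genes, 34.5% had one in all 6 libraries and 37.7% in none. Of the 12 HOXA cluster genes, including EVX1, 11 had none in any library, and HOXA13, a homeobox gene of limb and gut patterning, was listed at 34.3 and 48.6 in parental libraries and at 5.69 and 8.19 in SAP30-KO1 libraries. In the Williams region of the long arm, 2 of 21 genes had a peak in all 6 libraries, TBL2 and EIF4H, and 7 had none. RFC2, a clamp loader subunit there, had no listed peak, 5.63 and 13.9 against 5.49, 59.2 and 59.8. Zinc finger genes named ZNF had a peak in all 6 libraries at 19 of 35 promoters, with a median parental rank of 81.2. Of these ZNF786 was higher without overlap, at 26.2, 25.6 and 55.1 against 77.1, 83.5 and 73.8. None of the 8 GIMAP genes, 9 TAS2R bitter taste receptor genes and 17 olfactory receptor genes had a peak in each library, and GIMAP2 and OR2F2 were the members listed in any.

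**Figure D4:**
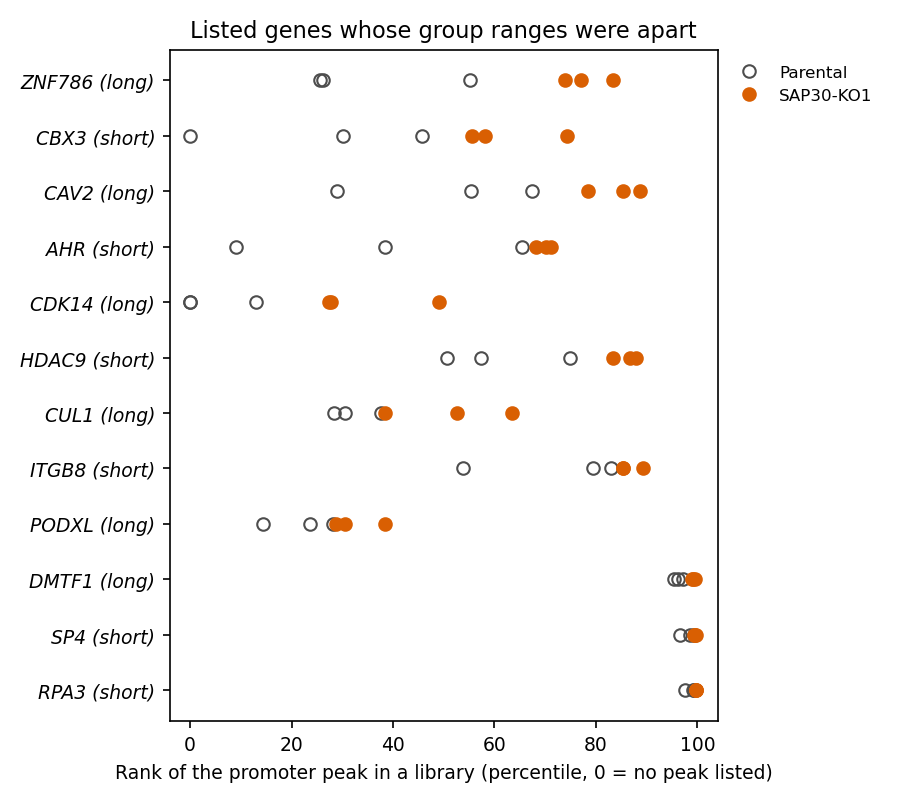
Rank of the promoter peak in each library (percentile, 0 where no peak was listed, horizontal axis) for the 12 genes of the lists whose groups did not overlap, with the arm in brackets (open grey, parental; filled orange, SAP30-KO1). All 12 were higher in SAP30-KO1, with gaps between the groups that range from wide at ZNF786 to almost none at SP4. CBX3 and CDK14 were without a listed peak in some parental libraries. Over all genes with a peak in all 6 libraries, 7.06% were higher and 5.70% lower without overlap. No share was counted that includes genes with unlisted peaks.

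Finally, the arms were compared with each other within libraries, a comparison that does not use the difference between parental and knockout cells. Short-arm summits lay at promoters less often, at 28.8%, 32.6% and 30.6% in parental libraries and 31.5%, 27.3% and 29.2% in SAP30-KO1 libraries. On the long arm the shares were 36.5%, 40.6% and 38.1%, and 40.5%, 34.0% and 36.2%. The means were 29.99% ± 1.95 and 37.7% ± 2.62 (SD, n = 6), and the short arm was lower in 6 of 6 libraries by 7.68 percentage points (exact permutation test by sign flips, two-sided, p = 0.03125). That is the smallest p that 6 libraries allow, and after adjustment over the 4 arm comparisons it was 0.03125. All 6 libraries come from the same cell line and share a gene map, so these p-values speak only to the spread between libraries. They do not say whether the 2 arms differ more than other arms do. At loci listed in all 6 libraries, promoter shares were 36.8% on 7p and 46.2% on 7q. Over the 41 arms they ran from 34.1% on 8q to 83.9% on 19q.

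The mean GC content of the 501 bp windows was 51.0% ± 0.563 on the short arm and 52.9% ± 0.633 on the long arm (SD, n = 6), lower on the short arm in 6 of 6 libraries (exact permutation test, two-sided, p = 0.03125, adjusted p = 0.03125). The AP-1 letters were found in 46.5% ± 1.77 of short-arm and 43.6% ± 1.71 of long-arm windows (SD, n = 6), higher in 6 of 6 libraries (exact permutation test, two-sided, p = 0.03125, adjusted p = 0.03125). This order depended on the promoters. Among summits outside promoters the share was 57.9% on the short arm and 59.0% on the long arm, higher on the short arm in 1 of 6 libraries (exact permutation test, two-sided, p = 0.0625). The GC difference outside promoters was 0.858 points in the same direction, at 46.2% and 47.1%.

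A promoter peak was listed for 57.6% ± 3.51 of short-arm protein-coding genes and 47.6% ± 2.07 of long-arm genes (SD, n = 6). The short arm was higher in 6 of 6 libraries by 9.99 points (exact permutation test, two-sided, p = 0.03125, adjusted p = 0.03125). The long arm thus had more of its summits at promoters and fewer of its genes with one. It also had more coding genes, 635 against 298. A promoter peak in all 6 libraries was listed for 46.0% of short-arm, 34.5% of long-arm and 34.5% of all protein-coding genes. Why the arms differed was not tested. The share of windows with the AP-1 letters also differed between the groups on both arms. It was 44.6%, 45.9% and 44.3% in parental and 47.7%, 48.3% and 48.0% in SAP30-KO1 libraries on the short arm, and 43.3%, 42.1% and 41.4% against 43.8%, 45.4% and 45.5% on the long arm, without overlap on either. The nearest long-arm values were 43.3% and 43.8%. This comparison of the groups was not made for other arms or for summits outside promoters alone. The difference is therefore not shown to be particular to chromosome 7, and it was not tested.

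**Figure D5:**
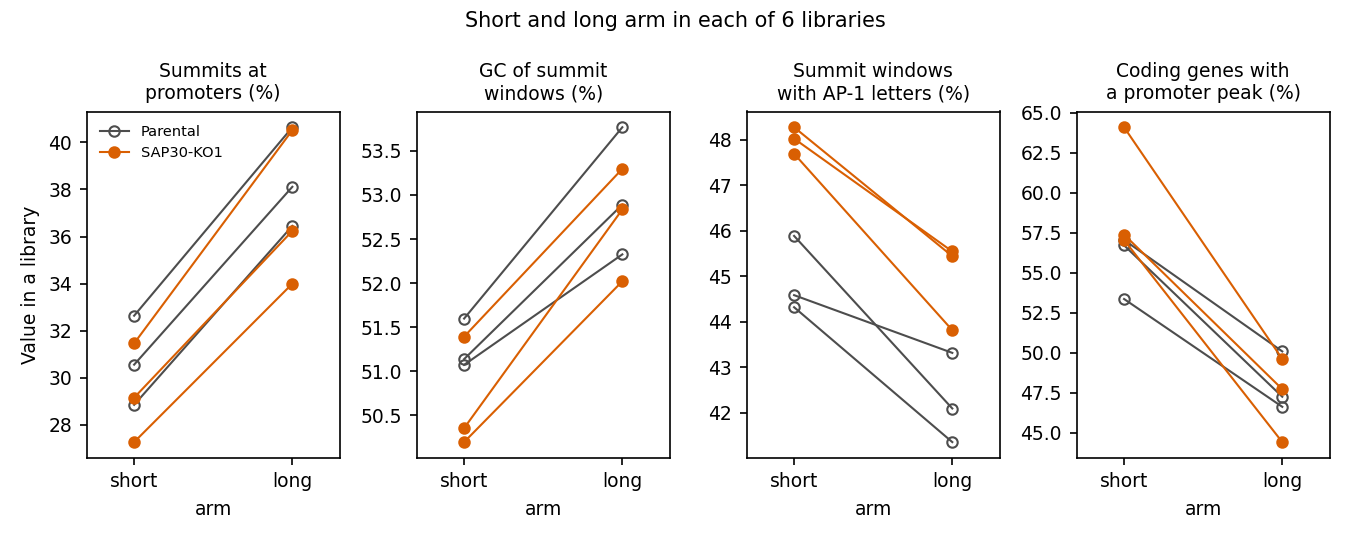
Measures of the summits or genes of the short and the long arm (%, vertical axes, which do not start at 0), with a line for each of 6 libraries (grey, parental; orange, SAP30-KO1). In each panel the 6 lines run the same way, up to the long arm for promoter share and GC content and down for the AP-1 letters and for genes with a promoter peak.

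At the loci listed in all 6 libraries, sequence features followed the kind of locus. The AP-1 letters were in 61.5% of short-arm and 61.9% of long-arm distal loci, and in 63.96% of distal loci on all chromosomes. At promoters they were in 16.4%, 17.2% and 15.8%. The letters GGGCGGG, bound by SP and KLF factors, were in 53.5% of short-arm and 55.6% of long-arm promoter loci, where all promoter loci had 59.0%, and in 6.96% and 6.19% of distal loci. The letters GGAATG, bound by TEAD factors, were in 36.3% of short-arm and 32.6% of long-arm distal loci, against 39.9% of all distal loci. The ETS letters CCGGAAG were in 23.3% and 21.2% of promoter loci, against 21.6% of all. Both strands were searched, and a window could hold several of these motifs. Of the 68 short-arm loci that were higher without overlap, 50.0% held the AP-1 letters and 29.4% were at promoters, and of the 21 that were lower, 42.9% and 23.8%. On the long arm the 44 higher loci had 31.8% and 50.0%, and the 18 lower loci 33.3% and 61.1%. All short-arm loci had 44.9% and 36.8%, and all long-arm loci 41.2% and 46.2%. Over all chromosomes the 1400 higher loci had 46.8% and 36.6%, and the 1155 lower loci 44.6% and 38.5%. These sets on chromosome 7 are small, and their shares were not tested.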

How the data were processed

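ATAC-seq was analysed in 3 parental and 3 SAP30-KO1 libraries, grouped by GEO's labels. Per the labels and the study's methods, the authors trimmed single-end reads with Trim Galore 0.4.5, aligned them to hg19 with Bowtie2 2.3.3.1, removed duplicates (Picard) and used MACS2 2.1.0 at a q value of 0.05 to call peaks. How transposase offsets, blacklisted regions and reads with several matches were treated is not given in the sources used here. The deposited lists give the summit and the −log10 of its q value, and the lowest value of a list was 1.31 to 1.33. They hold no counts, so no counting interval is given, and scores were turned into ranks within each list. A locus took the rank of its strongest summit.

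Annotation was GENCODE 44 on GRCh37. Summits or loci within 1 kb of a transcript start were called promoters and the others distal, and genes were named as nearest by distance alone. Arms were compared within libraries by an exact permutation test over all sign flips, with Benjamini-Hochberg adjustment over 4 tests. Members, gene lists and tests were chosen with earlier results of these data known. Named loci were, on each arm, the 3 promoter and 3 distal loci of highest mean rank, the 4 with the largest difference in each direction among loci without overlap, and the 2 of highest mean rank found in 1 group only. Named genes came from lists of chromosome 7 genes. The code was tested on simulated data. Between pairs of lists, 0.417% to 0.598% of summits had the same position, so no list was a copy. Python 3.11.15, numpy 2.4.6, pandas 2.3.3 and scipy 1.17.1 were used.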

Additional observations from a re-analysis of the deposited data

How the results depend on the processing

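Lists without depth leave a stronger peak and a deeper library impossible to tell apart, ranks are relative to the rest of a list, and the groups were compared on the contrast that chose the chromosome. No arm's median difference changed sign under a q value of 0.01, lists cut to the same number of summits, windows of 100 bp on each side, ranks among loci found in all 6 libraries, lists without the long arm of chromosome 11, loci in 2 of 3 libraries of each group, means over loci, or narrower or wider promoters, nor did a share ratio under the settings run for it, a q value of 0.01, lists of the same length and lists without that arm. With lists of the same length the short-arm log2 ratio of shares was 0.19. With 100 bp on each side, 13 short-arm loci were lower without overlap. The AP-1 difference between the arms was reversed outside promoters, at -1.04 points.

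Leaving out 1 library gave a log2 ratio of shares of 0.14 to 0.17 on the short arm and -0.04 to -0.01 on the long arm. Median differences were 2.12 to 4.66 on the short arm (promoters 1.25 to 3.50, distal 2.22 to 5.41), 0.67 to 3.18 on the long arm (promoters 0.76 to 3.73, distal 0.31 to 2.92), 4.37 to 8.45 in the first 40 Mb and -3.91 to -0.44 from there to the gap. Fewer libraries are easier to keep apart, so counts without overlap were higher: 86 to 117 higher and 30 to 52 lower loci on the short arm, and 66 to 91 and 27 to 58 on the long arm. Loci of 1 group only numbered 9 to 21 parental and 47 to 71 SAP30-KO1 on the short arm, and 22 to 48 and 21 to 46 on the long arm. The arm differences were -7.86 to -7.40 points in promoter share, -2.03 to -1.78 in GC content, 2.67 to 3.19 in AP-1 letters and 9.10 to 10.6 in genes with a promoter peak. With 5 libraries the smallest possible p is 0.0625, so these tests could not pass 0.05.

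Labels number the replicates alike in both groups. Deviations of libraries with the same number had correlations of -0.0179, -0.0127 and -0.0032, so no pairing by number was seen. Such values cannot tell whether libraries with the same number were prepared together. With a replicate block the short-arm ratio was 0.15 and the long-arm ratio -0.02, and the medians were 2.71 and 2.46, with 2.36 and 2.52 at promoters. Of 268 values of the 28 named loci and promoters under other settings, 262 kept their sign and their call, 6 kept the sign and lost the gap between groups, and none was reversed. The 6 were at the promoters of CUL1, ITGB8, AHR, PODXL and, by 2 settings, SP4. All 28 had been chosen because their groups were apart. Leaving out 1 library does not change the ranks in the others, so there neither sign nor gap could be lost. The values from those settings, most of the 268, therefore say nothing about how stable the named differences are. The 40 Mb border, the settings for named loci and promoters, the repeats, and loci of 1 group only without the long arm of chromosome 11 were chosen after the data were seen.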

Other observations

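Promoters outside the gene lists were also apart between the groups on chromosome 7, and were chosen for naming after their values were seen. On the short arm MIOS, a subunit of the GATOR2 complex that acts upstream of mTORC1, was higher by 38.5 points, KBTBD2, an adaptor of cullin 3 ubiquitin ligases, by 25.7, and LANCL2, a LanC-like protein gene, by 22.3. STK17A, a kinase of the DAPK family, was lower by 29.0 and EPDR1 by 20.9. On the long arm PUS7, a pseudouridine synthase, was higher by 33.2, MNX1, a homeobox gene of motor neurons and pancreas, by 30.5, and PTPN12, a tyrosine phosphatase that acts on focal adhesion proteins, by 29.7. METTL2B, a tRNA methyltransferase, was lower by 37.9 and BAIAP2L1, which links membranes to actin, by 27.5. The promoter of GPR85, an orphan receptor, was listed in parental libraries only, with ranks of 77.0, 67.7 and 36.1, and an exon of IL6, the interleukin 6 cytokine, in SAP30-KO1 libraries only, with 39.6, 43.9 and 56.9.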
